A study of Homo sapiens with 8 samples.

Results

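The 30 genes described here encode nuclear subunits of the last 3 enzymes of oxidative phosphorylation. They comprise 8 genes of complex III and its electron carrier cytochrome c, 10 genes of complex IV and 12 genes of ATP synthase. They were taken by gene symbol from the 18664 genes of the expression table, and all 30 had enough counts for testing. RNA-seq compared HT29 cells, a human colon cancer line, carrying a lentiviral short hairpin RNA against ALDH1A1 (shALDH1A1, labelled ALDH1A1 knockdown) with control HT29 cells (shControl, also called CTRL). Both groups were grown with 10% FBS, and each had 4 libraries. The labels call the control cells shControl in one place and wild type or parental in others, and they do not name the hairpin that was sequenced. Nothing says that the libraries came from separate cultures, so p-values measure the spread between these libraries, which may be technical.

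Complex III passes electrons from ubiquinol to cytochrome c and moves protons across the inner mitochondrial membrane. Complex IV, cytochrome c oxidase, hands the electrons of cytochrome c to oxygen, and ATP synthase uses the returning protons to make ATP. Each complex joins nuclear subunits with subunits encoded in mitochondrial DNA; the mitochondrially encoded ones were not analysed here.

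The shALDH1A1 libraries held 536575 to 1908803 counts on genes and the shControl libraries 291260 to 4137111. ALDH1A1, the target of the hairpin, gave 3, 1, 1 and 0 counts across shALDH1A1 replicates 1 to 4, against 1858, 83, 1870 and 1000 counts in shControl replicates 1 to 4. The libraries labelled shControl held genes that a colon cancer line should lack. The 5 chief cell genes of the stomach took 0 to 0.00505% of a shALDH1A1 library, against 3.13 to 35.8% of a shControl library. The 4 parietal cell genes took 0 to 0.000373% of a shALDH1A1 library, against 0.114 to 1.08% of a shControl library. Smooth muscle genes took 0 to 0.0364% of a shALDH1A1 library and 0.00996 to 2.77% of a shControl library, so these ranges overlapped, and shControl replicate 1 held the 2.77%. The 8 colon epithelium genes together took 0.00167 to 0.00709% in shALDH1A1 and 0.00442 to 0.0294% in shControl libraries, and the colon identity genes CDX1 and CDX2 had at most 3 counts in any library. The MTRNR2L genes, nuclear copies of mitochondrial ribosomal RNA sequence, took 0.00360 to 0.183% of a shALDH1A1 library and 0.233 to 50.4% of a shControl library. The 30 genes that every cell uses took 0.0272 to 0.183% of a shALDH1A1 library and 1.21 to 5.46% of a shControl library. The part of these differences in the results below was not tested. Fewer cells of a type and less RNA per cell cannot be told apart in such bulk libraries.

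The subunit genes together took 0.0136, 0.0378, 0.0281 and 0.0342% of the counts in shALDH1A1 replicates 1 to 4, against 0.983, 0.393, 0.356 and 0.558% in shControl replicates 1 to 4. The mean share was 0.0284 ± 0.0107% in shALDH1A1 libraries and 0.573 ± 0.288% in shControl libraries (SD, n = 4 each). The lowest shControl library lay above the highest shALDH1A1 library. In counts, the 30 genes held 260, 526, 473 and 183 in shALDH1A1 libraries, against 22824, 1146, 14715 and 9300 in shControl libraries. No count was found for 15 members in shALDH1A1 replicate 1, 1 in replicate 2, 0 in replicate 3 and 13 in replicate 4, while every member had counts in each shControl library. A count of 0 allows up to 3 counts, which is 1.57 and 5.59 CPM in shALDH1A1 replicates 1 and 4. So many single values of shALDH1A1 cells rest on a handful of reads.

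**Figure D1:**
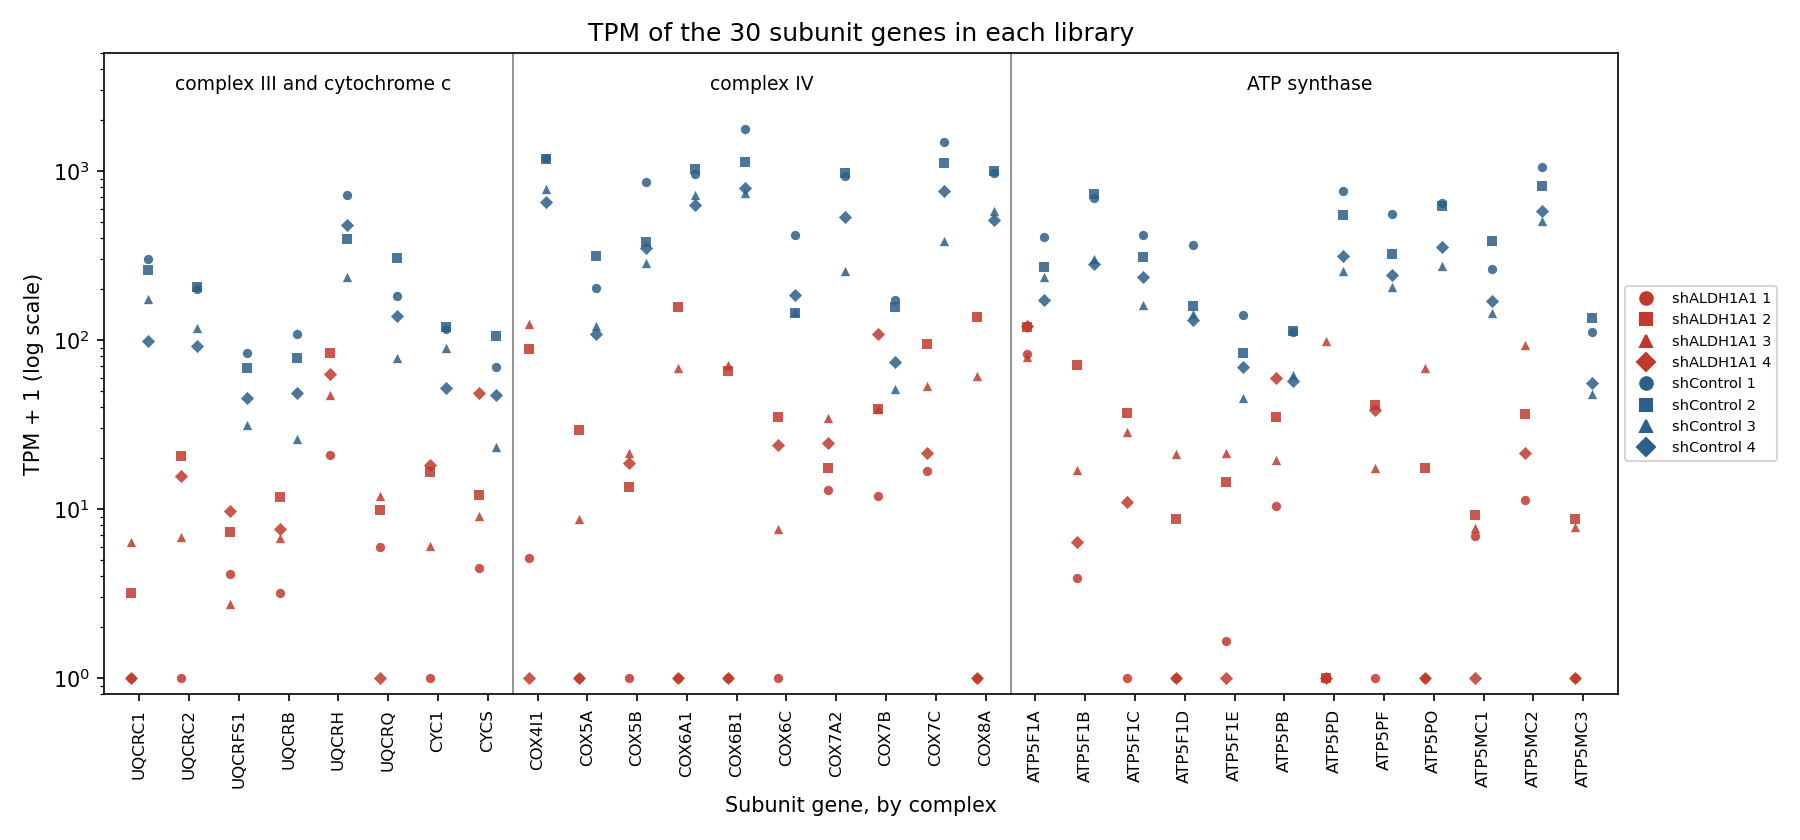
TPM + 1 (log scale) of each of the 30 subunit genes, with 1 point per library, shALDH1A1 in red at the left of each gene and shControl in blue at the right. The groups did not overlap for 27 genes, and overlapped for CYCS, COX7B and ATP5PB.

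With TMM factors, which scale libraries by a trimmed mean of gene ratios, 25 of the 30 members were lower in shALDH1A1 cells and 0 were higher (edgeR's quasi-likelihood test, Benjamini-Hochberg adjusted p under 0.05 over 7971 genes). In the same test 33.0% of all tested genes were lower and 2.60% were higher. The lower members were 7 of 8 in complex III with cytochrome c, 9 of 10 in complex IV and 9 of 12 in ATP synthase. CYCS, COX7B, ATP5F1A, ATP5F1E and ATP5PB did not pass. In TPM (a level per transcript length, scaled to the library), every shALDH1A1 library lay below every shControl library for 27 of 30 members, against 34.9% of all tested genes. At the limits of the study's methods (log2 fold change beyond 1 and FDR under 0.001) 0 members were lower, where 4.89% of tested genes were. At an unadjusted p under 0.05, 27 members were lower, against 41.6% of tested genes, and 0 were higher. DESeq2 called 29 lower and 0 higher. It called 4093 of the 7971 genes of the edgeR test lower, and 47.9% of all 14451 genes that it tested. The number of members called lower was 10 without shALDH1A1 replicate 1 (22.5% of all genes tested in that fit) and 9 without shALDH1A1 replicate 4 (23.9%). It was 19 without shALDH1A1 replicate 2 (36.3%) and 21 without shALDH1A1 replicate 3 (37.3%). Without shControl replicates 1 to 4 in turn it was 22 (24.6%), 29 (60.4%), 22 (25.8%) and 28 (44.0%). UQCRC1, UQCRFS1, UQCRQ, COX5B, COX6C, COX7A2, ATP5F1D and ATP5MC1 were the 8 members called whichever library was left out. The share of all tested genes called in every such fit was not determined, so nothing is concluded from this number.

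The direction depended on the scaling for several members. The median log2 fold change of the members was -3.75, against -1.44 over all tested genes, a difference of -2.30. When libraries were scaled to the 30 genes that every cell uses, these medians became -1.42 and 1.86, a difference of -3.27. A total of 29 members lay under the all-gene median on either scale, ATP5F1A being the exception. On this second scale 26 members had a negative log2 fold change, but UQCRC1 was the single member called lower, against 5.18% of tested genes, and 0 members were called higher (edgeR, also 0 at an unadjusted p under 0.05), against 40.8% of tested genes. CYCS, COX7B, ATP5F1A and ATP5PB turned positive there, with 1.20, 1.81, 3.05 and 1.47, and none of these 4 passed.

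**Figure D2:**
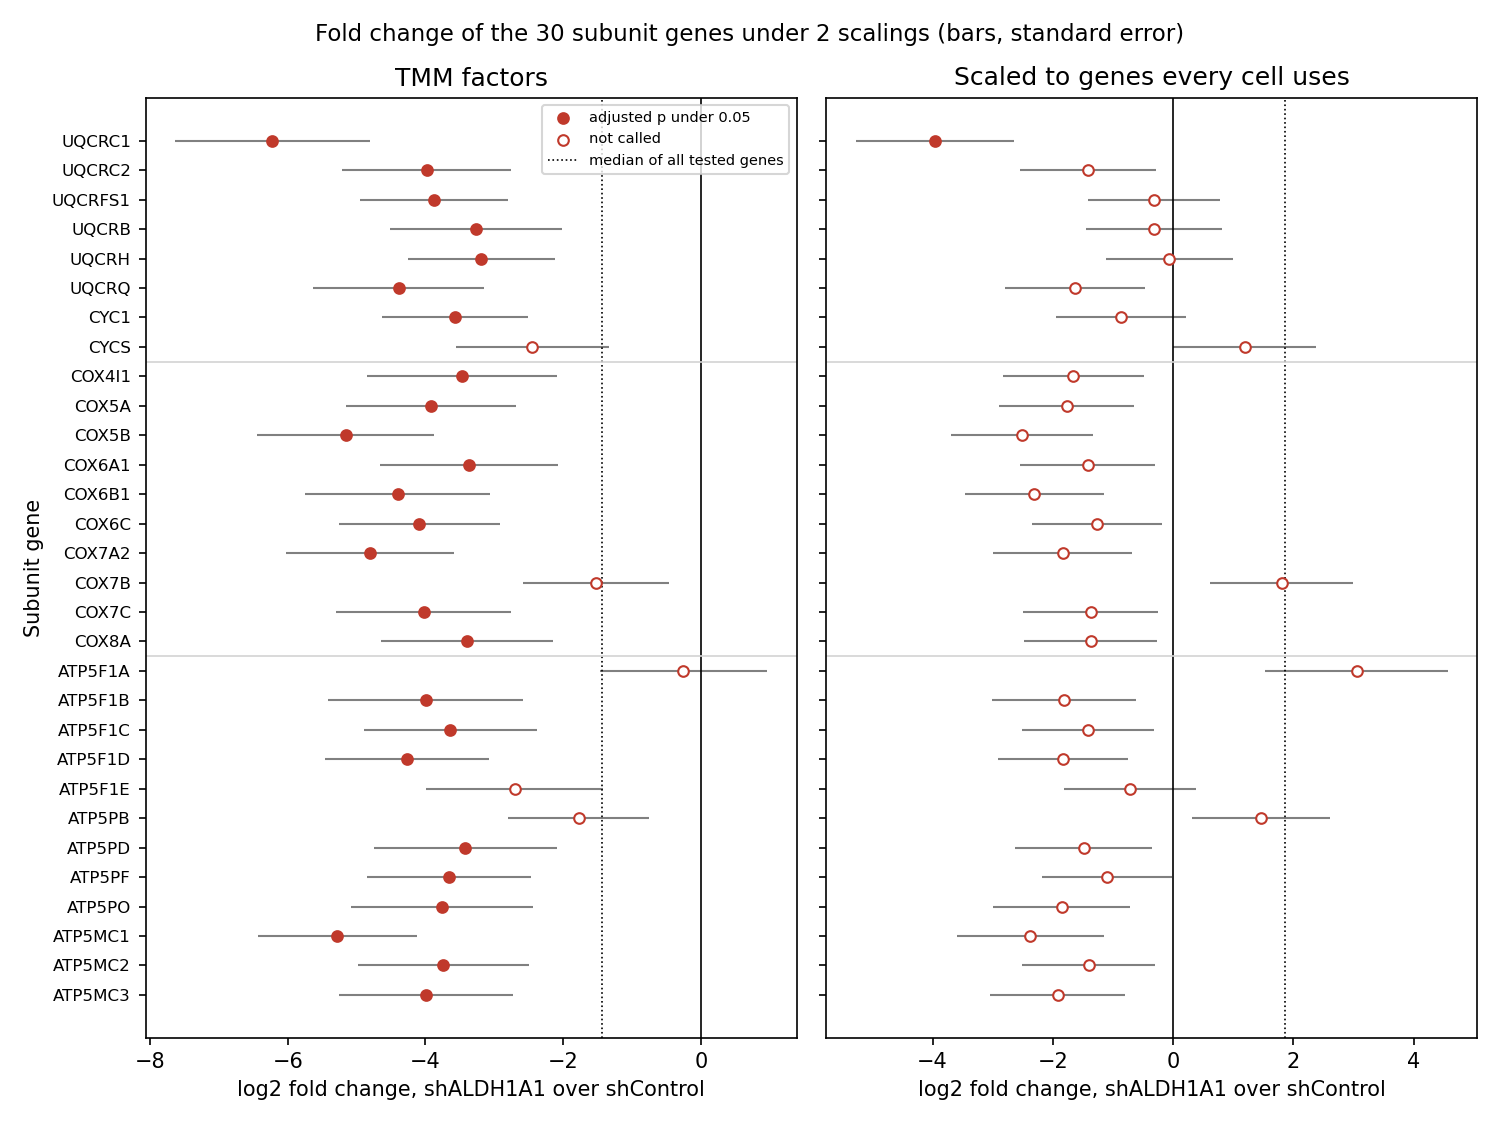
Log2 fold change (shALDH1A1 over shControl) of the 30 subunit genes with TMM factors at the left and scaled to genes every cell uses at the right. Points are estimates, bars the standard error, filled points passed an adjusted p under 0.05, and the dotted line is the median of all tested genes. The members' median was -3.75 at the left and -1.42 at the right, and ATP5F1A was the 1 member above the dotted line in both panels.

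The stretches of sequence before the start of 4 members are shown because UQCRC1, COX5B and ATP5MC1 had the smallest p in their complex, and ATP5F1A differed most from the rest. They are the 120 bases up to the start site, from RefSeq promoters (GRCh38.p14), and capitals mark a searched motif, on either strand, that lies wholly within them. UQCRC1 lies at chr3:48609647-48609766 on the minus strand, COX5B at chr2:97645942-97646061 on the plus strand and ATP5MC1 at chr17:48892667-48892786 on the plus strand. ATP5F1A has 2 starts in the table, and the 2 windows lie at chr18:46098297-46098416 and chr18:46104228-46104347, both on the minus strand.
UQCRC1: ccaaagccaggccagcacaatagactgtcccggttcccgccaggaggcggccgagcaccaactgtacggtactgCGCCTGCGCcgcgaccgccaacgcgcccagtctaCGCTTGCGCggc
COX5B: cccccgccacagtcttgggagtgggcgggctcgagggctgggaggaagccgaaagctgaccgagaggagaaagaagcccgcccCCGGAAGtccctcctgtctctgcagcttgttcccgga
ATP5MC1: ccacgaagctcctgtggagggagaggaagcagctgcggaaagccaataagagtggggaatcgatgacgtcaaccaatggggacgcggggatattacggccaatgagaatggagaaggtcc
ATP5F1A, first window: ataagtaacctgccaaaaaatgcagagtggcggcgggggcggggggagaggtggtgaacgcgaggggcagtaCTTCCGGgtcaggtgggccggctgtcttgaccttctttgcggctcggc
ATP5F1A, second window: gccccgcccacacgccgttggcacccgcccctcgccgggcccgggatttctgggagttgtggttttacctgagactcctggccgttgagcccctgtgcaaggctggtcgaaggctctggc

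NRF1 and GABPA are transcription factors known to bind promoters of respiratory chain genes. Their core motifs GCGCANGCG (NRF1) and CCGGAAG (the ETS motif of GABPA), with GATGGCGG (YY1) and the TATA box TATAAA, were searched on both strands of the 300-base windows. Of the 30 members, 24 matched a promoter entry; UQCRB, CYC1, COX6C, ATP5F1B, ATP5F1D and ATP5MC3 did not. The NRF1 core was present in 7 of 24 (29.2%), against 9.02% of all genes with an entry and 17.6% of the tested genes. The ETS core was present in 10 of 24 (41.7%), against 12.2% of all and 23.1% of the tested genes. The YY1 core was present in 2 members (8.33%, against 2.85% of all and 5.75% of the tested genes) and the TATA box in 3 (12.5%, against 14.0% of all and 9.33% of the tested genes). No 2 different motifs overlapped within a member's window, though the NRF1 core can overlap its own reverse complement. UQCRC1 holds 2 NRF1 cores before its start and a YY1 core after it, COX5B an ETS core (and 1 more across its start), and the first window of ATP5F1A an ETS core, whereas the ATP5MC1 window holds none of these letters.

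Among the complex III genes, UQCRC1 (core protein 1, GRCh37 chromosome 3, 48636435 to 48648409) gave 0, 1, 3 and 0 counts across shALDH1A1 replicates 1 to 4, against 829, 37, 725 and 224 counts in shControl replicates 1 to 4. Its TPM was 0, 2.19, 5.37 and 0 in shALDH1A1 cells, against 301, 259, 175 and 97.9 in shControl cells. It was close to absent from the shALDH1A1 libraries and had the most negative log2 fold change of the members, -6.22 (SE, the standard error, 1.41, adjusted p = 0.00166). On the second scale it was -3.96 (SE 1.31, adjusted p = 0.0185, edgeR). UQCRFS1 (the Rieske iron-sulfur protein) had TPM of 3.14, 6.35, 1.73 and 8.69 in shALDH1A1 cells, against 83.2, 67.6, 30.4 and 44.4 in shControl cells. The groups did not overlap, and it changed by -3.88 on the log2 scale (SE 1.08, adjusted p = 0.00723). UQCRQ, a small structural subunit, had 4.94, 8.92, 10.9 and 0 TPM in shALDH1A1 cells, against 182, 306, 77.5 and 139 TPM in shControl cells (log2 fold change -4.39, adjusted p = 0.00797).

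UQCRB, another small structural subunit, took up to 34.8% of the counts on complex III and cytochrome c. Its TPM was 2.19, 10.9, 5.72 and 6.66 in shALDH1A1 cells, against 108, 77.8, 24.8 and 47.8 in shControl cells. It was lower (log2 fold change -3.27, SE 1.25, adjusted p = 0.0417), and among shControl libraries replicate 1 was highest. UQCRC2 (core protein 2), UQCRH (the hinge protein) and CYC1 (cytochrome c1) also were lower, with log2 fold changes of -3.98, -3.19 and -3.57. CYCS, the soluble electron carrier that also acts in apoptosis, had 3.47, 11.1, 8.14 and 47.9 TPM in shALDH1A1 cells, against 68.3, 104, 22.4 and 46.2 TPM in shControl cells. Its groups overlapped, since shALDH1A1 replicate 4 exceeded shControl replicates 3 and 4. It changed by -2.45 on the log2 scale (SE 1.11, adjusted p = 0.0797). The reference names 42 CYCS pseudogenes, so that its reads can be shared with near-identical copies. Many other members, though not all, have named pseudogenes too, among them COX7B (4), ATP5F1A (7), ATP5PB (8) and ATP5MC1 (8).

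Among the complex IV genes, COX5B, the zinc-binding subunit, had 0, 12.6, 20.5 and 17.7 TPM in shALDH1A1 cells, against 861, 381, 286 and 351 TPM in shControl cells. Its fold change on the log2 scale was -5.16 (SE 1.29, adjusted p = 0.00344), the largest fall in the complex. COX7A2, one of the small membrane subunits, had 12, 16.5, 33.6 and 23.5 TPM in shALDH1A1 cells, against 933, 973, 254 and 532 TPM in shControl cells (log2 fold change -4.81, adjusted p = 0.00388). COX6C, another small membrane subunit, had 0, 33.9, 6.62 and 23.1 TPM in shALDH1A1 cells, against 416, 144, 145 and 185 TPM in shControl cells (log2 fold change -4.09, SE 1.17, adjusted p = 0.00871). All 3 stayed below every shControl library. COX6C has 17 named pseudogenes and COX5B has 7.

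COX4I1, the largest nuclear subunit and a regulatory one, ranged widely in shALDH1A1 cells, with 4.13, 87.4, 123 and 0 TPM, against 1198, 1177, 779 and 653 TPM in shControl cells. It passed narrowly (log2 fold change -3.47, SE 1.38, adjusted p = 0.0498). COX5A, COX6A1, COX6B1, COX7C and COX8A also passed, with log2 fold changes of -3.92, -3.37, -4.41, -4.03 and -3.39. In shALDH1A1 replicates 1 and 4, COX5A, COX6A1, COX6B1 and COX8A all had 0 counts. COX7B, a small membrane subunit, did not pass. It had 11, 38.2, 38.0 and 108 TPM in shALDH1A1 cells, against 171, 157, 50.5 and 73.0 TPM in shControl cells. shALDH1A1 replicate 4 lay within the shControl range, and the log2 fold change was -1.53 (SE 1.06, adjusted p = 0.228).

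ATP synthase is built of a catalytic head, a central stalk, a peripheral stalk and a ring of c subunits in the membrane. Of the head, ATP5F1B (the catalytic beta subunit) had 2.90, 70.7, 16 and 5.40 TPM in shALDH1A1 cells, against 691, 726, 303 and 281 TPM in shControl cells, and was lower (log2 fold change -4.00, SE 1.41, adjusted p = 0.0293). Its partner ATP5F1A (the alpha subunit, GRCh37 chromosome 18, 43660214 to 43684300) had 81.9, 118, 78.6 and 121 TPM in shALDH1A1 cells, against 406, 269, 236 and 172 TPM in shControl cells. Its TPM did not overlap between groups, yet the test on counts gave a log2 fold change of -0.25 (SE 1.22, adjusted p = 0.867). Whether the fold changes of alpha and beta differ was not tested.

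In the central stalk, ATP5F1D (the delta subunit) had 0, 7.72, 20.1 and 0 TPM in shALDH1A1 cells, against 365, 157, 142 and 131 TPM in shControl cells (log2 fold change -4.27, SE 1.20, adjusted p = 0.00765). ATP5F1C (gamma) was also lower, with -3.64. ATP5F1E (epsilon) had 0.66, 13.4, 20.5 and 0 TPM in shALDH1A1 cells, against 140, 82.9, 44.1 and 68.4 TPM in shControl cells. These did not overlap, but its call did not pass (log2 fold change -2.71, adjusted p = 0.0917). In the peripheral stalk, ATP5PD, ATP5PF and ATP5PO were lower, with log2 fold changes of -3.42, -3.66 and -3.76. ATP5PD had 0, 0, 16 and 0 counts in shALDH1A1 replicates 1 to 4, against 575, 23, 285 and 198 in shControl replicates 1 to 4. Its call was lost without shALDH1A1 replicate 1, 2 or 4 and without shControl replicate 1 or 3. ATP5PB (the b subunit) had 9.49, 34.1, 18.5 and 58.8 TPM in shALDH1A1 cells, against 111, 113, 61.5 and 55.9 TPM in shControl cells, with shALDH1A1 replicate 4 above shControl replicate 4, and did not pass (log2 fold change -1.78, SE 1.02, adjusted p = 0.153).

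The c ring is encoded by 3 genes for the same mature protein, and all 3 were lower. ATP5MC1 had 1, 1, 1 and 0 counts in shALDH1A1 replicates 1 to 4, against 197, 16, 161 and 104 counts in shControl replicates 1 to 4. On the log2 scale it changed by -5.28 (SE 1.15, adjusted p = 0.00119). ATP5MC2, with log2 fold change -3.74, and ATP5MC3, with -4.00, also passed. ATP5MC3 had 0, 7.68, 6.88 and 0 TPM in shALDH1A1 cells, against 111, 135, 47.0 and 54.5 TPM in shControl cells.

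Members were picked here for holding 25% or more of their complex's counts in any library, and 5 did. Of these, ATP5F1A, COX7B and CYCS took a larger part of their complex in shALDH1A1 cells than in shControl cells. ATP5F1A held 92.5, 65.1, 57.4 and 78.5% of the ATP synthase counts in shALDH1A1 replicates 1 to 4, against 14.8, 28.1, 19.6 and 13.2% in shControl replicates 1 to 4. COX7B held 64.4, 25, 31.6 and 87.9% of the complex IV counts in shALDH1A1 cells, against 10.2, 10.4, 6.99 and 8.63% in shControl cells. CYCS held 30.8, 22.5, 29.0 and 63.1% of the complex III and cytochrome c counts in shALDH1A1 cells, against 12.6, 19.7, 10.5 and 16.8% in shControl cells. Each of these ranges lay above the shControl range. The COX7B and CYCS percentages rest on few reads in shALDH1A1 cells. In shALDH1A1 replicates 1 to 4 complex IV held 17, 112, 108 and 33 counts. Complex III with cytochrome c held 26, 84, 59 and 48 counts there. COX7B and CYCS reached 25% in shALDH1A1 libraries alone, so their difference partly follows from how they were picked. UQCRB held 13.9 to 34.8% in shALDH1A1 cells and 18.5 to 31.7% in shControl cells. COX4I1 held 0 to 25.9% in shALDH1A1 cells and 17.2 to 25.7% in shControl cells, so both of these overlapped. ATP5F1B, the member with the most ATP synthase counts in shControl replicates 1, 3 and 4, held 0.923 to 10.9% in shALDH1A1 cells, against 19.2 to 22.5% in shControl cells.

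**Figure D3:**
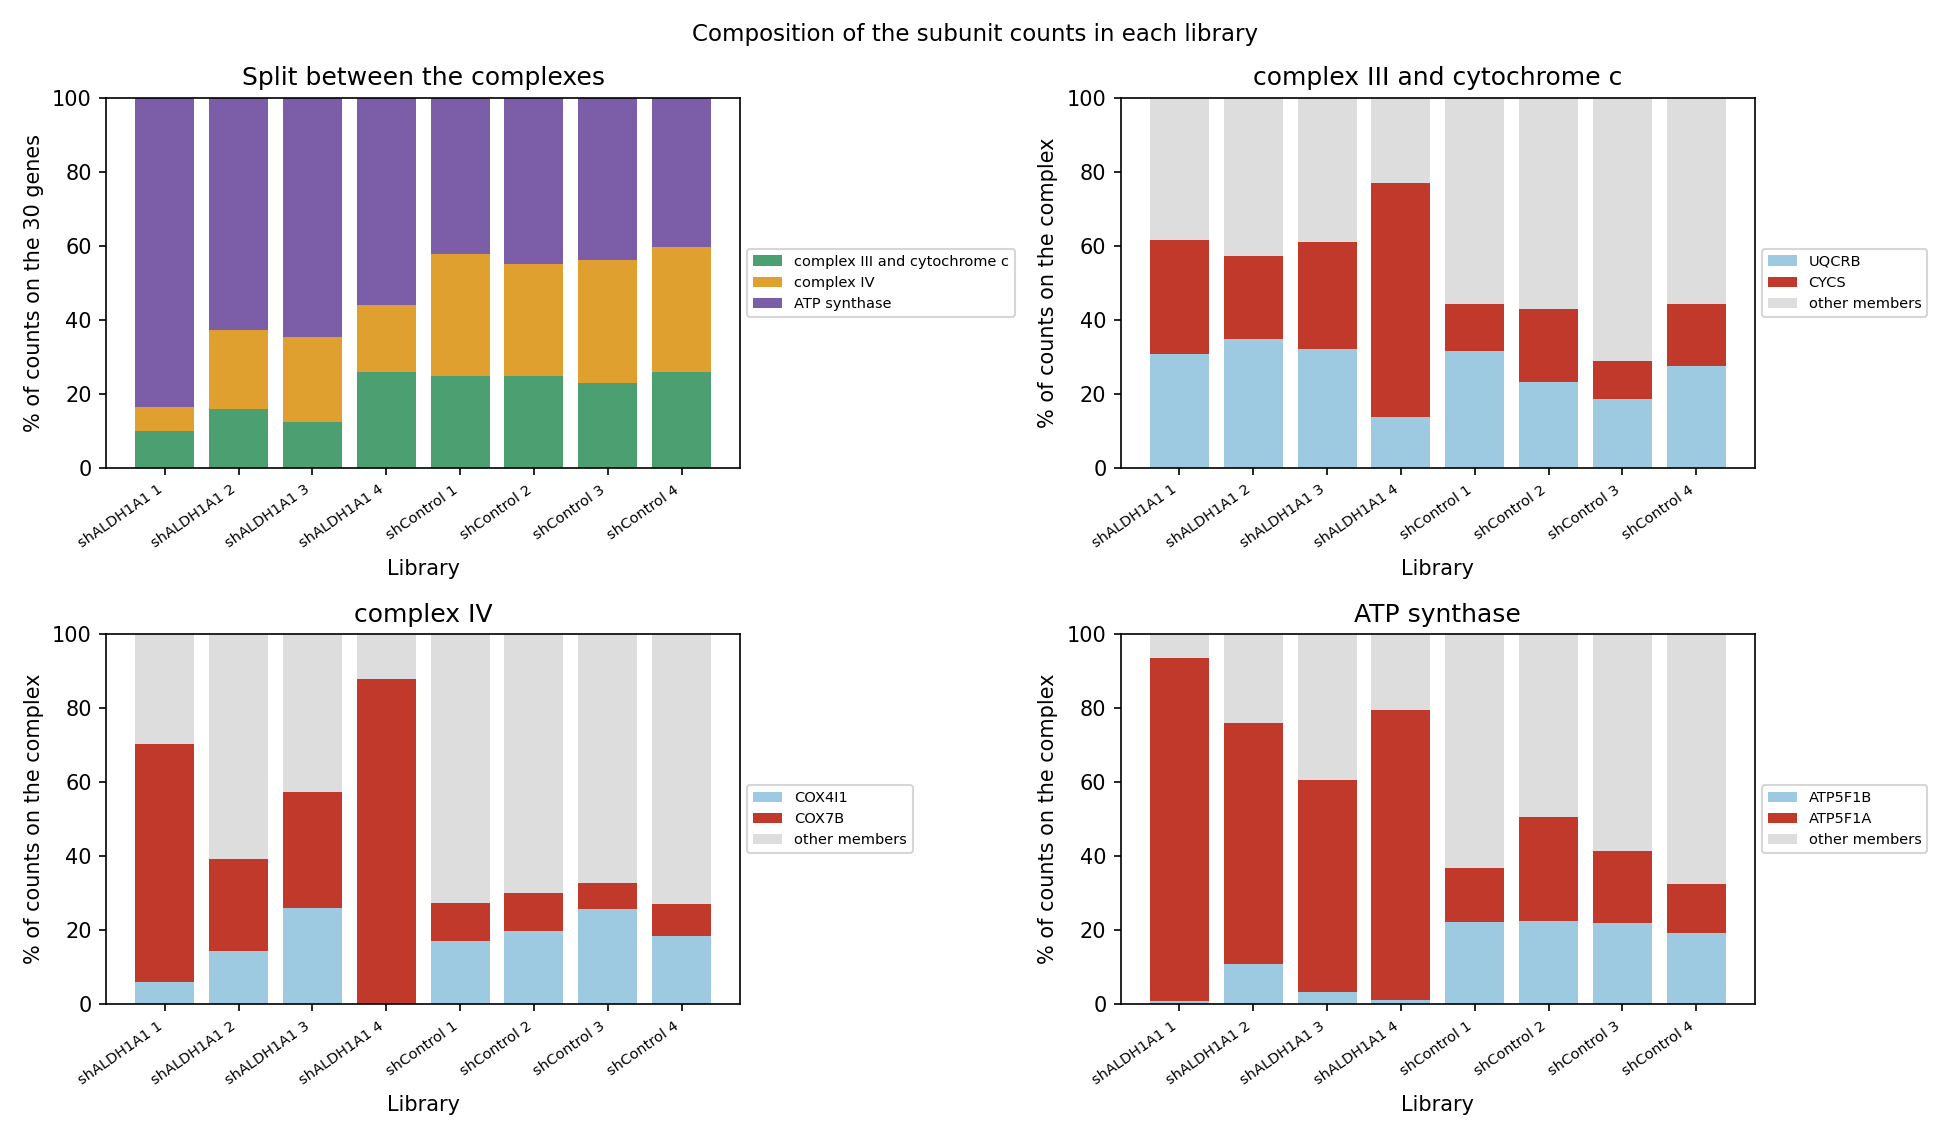
Percentage of counts in each library, shALDH1A1 at the left and shControl at the right. The first panel splits the counts on the 30 genes between the complexes, and the others show 2 members of each complex. ATP5F1A held 57.4 to 92.5% of the ATP synthase counts in shALDH1A1 libraries and 13.2 to 28.1% in shControl libraries.

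The complex IV share of all counts was 0.000884, 0.00805, 0.00643 and 0.00615% in shALDH1A1 replicates 1 to 4, against 0.323, 0.119, 0.118 and 0.188% in shControl replicates 1 to 4. The first of these had a 95% Wilson interval of 0.000556 to 0.00143%, and such intervals cover counting error only. The means were 0.00538 ± 0.00311% in shALDH1A1 cells and 0.187 ± 0.0964% in shControl cells (SD, n = 4 each, exact two-sided permutation test, p = 0.0286, adjusted p = 0.0343 over 6 tests). For complex III with cytochrome c they were 0.00496 ± 0.00325% in shALDH1A1 cells and 0.142 ± 0.0734% in shControl cells. For ATP synthase they were 0.0181 ± 0.00510% in shALDH1A1 cells and 0.243 ± 0.118% in shControl cells. Both gave the same exact p of 0.0286, the smallest that 4 libraries against 4 allow. As a share of TPM, complex IV took 0.0346 ± 0.0281% in shALDH1A1 cells and 0.627 ± 0.233% in shControl cells, and ATP synthase 0.0306 ± 0.0158% in shALDH1A1 cells and 0.376 ± 0.150% in shControl cells. With the MTRNR2L and stomach genes left out of the total, the difference was -0.219 percentage points for complex III with cytochrome c, -0.291 for complex IV and -0.362 for ATP synthase, against -0.137, -0.182 and -0.225 with them. Per 100 counts on the genes every cell uses, the 30 members held 50.1, 20.9, 15.4 and 32.8 in shALDH1A1 replicates 1 to 4, against 18.0, 32.5, 21.7 and 19.8 in shControl replicates 1 to 4, and the groups overlapped. By complex, complex IV stayed lower (4.29 ± 1.20 in shALDH1A1 and 7.40 ± 1.69 in shControl libraries, exact permutation p = 0.0286). The groups only just separated, with 3.25 to 5.91 in shALDH1A1 and 5.92 to 9.81 in shControl libraries. On the second scale edgeR called 0 of the 10 complex IV members lower. Counts per 100 on the genes every cell uses were a measure chosen after the values were seen. By that measure complex III with cytochrome c had 4.71 ± 2.85 in shALDH1A1 and 5.67 ± 1.62 in shControl libraries (exact permutation p = 0.600). ATP synthase had 20.8 ± 14.4 in shALDH1A1 and 9.93 ± 3.23 in shControl libraries, so the direction of its sum turned (exact permutation p = 0.114). ATP5F1A held 57.4 to 92.5% of the ATP synthase counts in shALDH1A1 libraries. Of the 12 ATP synthase genes, 10 had a negative log2 fold change on the second scale, so the turn of the sum does not describe most of them.

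Of the counts on the 30 genes, ATP synthase took 66.7 ± 11.8% in shALDH1A1 cells and 42.9 ± 2.03% in shControl cells (SD, n = 4 each, exact two-sided permutation test, p = 0.0286). Complex IV took 17.2 ± 7.40% in shALDH1A1 cells and 32.5 ± 1.57% in shControl cells (exact permutation p = 0.0286). Complex III with cytochrome c took 16.1 ± 7.03% in shALDH1A1 cells and 24.7 ± 1.20% in shControl cells (exact permutation p = 0.143). The split depended on the measure and on which members were counted. By TPM, ATP synthase took 44.65 ± 11.3% in shALDH1A1 cells and 33.1 ± 0.716% in shControl cells (exact permutation p = 0.143). Complex IV took 39.0 ± 14.4% of the TPM in shALDH1A1 cells and 55.6 ± 0.575% in shControl cells (exact permutation p = 0.0286). Its ranges nearly met, at 22.79 to 55.02% in shALDH1A1 and 55.15 to 56.39% in shControl libraries. Without ATP5F1A, a choice made after the values were seen, the ATP synthase part lay 5.37 percentage points lower in shALDH1A1 than in shControl cells (exact permutation p = 0.314), and complex IV lay 2.11 points lower (exact permutation p = 0.400). Without all 5 members that reached 25% of their complex in a library, ATP5F1A among them, ATP synthase took 57.3 ± 6.36% in shALDH1A1 cells and 47.9 ± 0.677% in shControl cells (SD, n = 4 each, exact permutation p = 0.0286). These 5 were set by their observed percentages, and CYCS and COX7B reached 25% in shALDH1A1 libraries alone. Leaving CYCS and COX7B out takes a larger part of their complexes from shALDH1A1 than from shControl libraries. No conclusion is drawn from this p.

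The ATP5F1A counts also sat on different transcripts in the 2 groups. The table lists 6 of them. In shALDH1A1 replicates 1 to 4 the transcript of relative length 2.38 (counts per TPM, with the library median of the 30 genes set to 1) held 0, 0, 0 and 0 counts, against 1394, 4.0, 1211 and 491.9 counts in shControl replicates 1 to 4. The 3 transcripts of relative length 6.45, 6.73 and 6.75 held the rest in shALDH1A1 cells. In shControl replicate 2, the library with the fewest counts, the shorter transcript held 2.75% of the gene's counts, and the 3 long ones held nearly all, as in the shALDH1A1 libraries. Counts grow with transcript length and TPM does not. Of the other members with 25% or more of their complex in a library, the table lists 1 transcript for CYCS and 1 for COX7B, and a single transcript held 99.8 to 100% of the UQCRB counts. One COX4I1 transcript held 93.9 to 97.7% of its counts in shControl libraries.

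**Figure D4:**
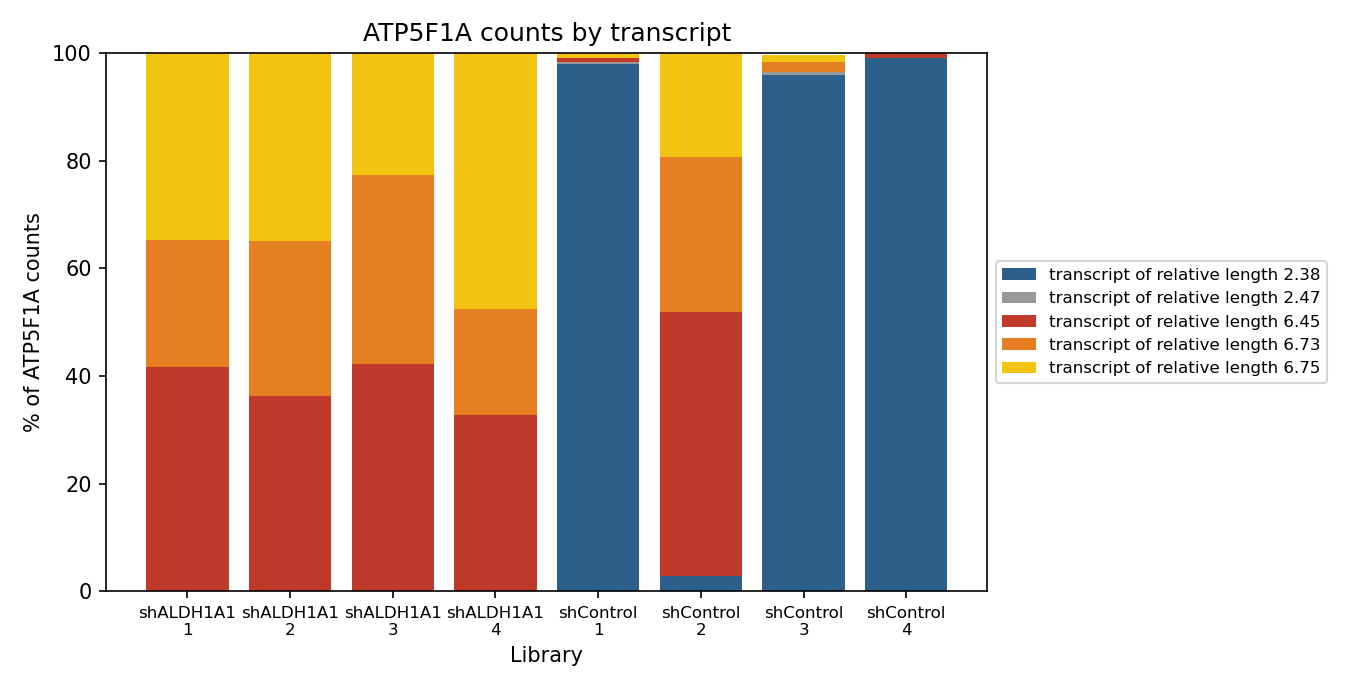
Percentage of ATP5F1A counts on each of 5 transcripts in each library (the sixth held under 5 counts in all), shALDH1A1 at the left and shControl at the right; relative length is counts per TPM with the library median of the 30 genes set to 1. The blue transcript of relative length 2.38 held 95.9 to 99.2% in shControl replicates 1, 3 and 4, 2.75% in shControl replicate 2 and 0 in the shALDH1A1 libraries.

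Transcript length went with the result across the members. The relative length of each member was taken from the shControl libraries alone. The 10 members with the longest transcripts included the 5 that did not pass, while the 20 others were all lower with TMM factors. The median log2 fold change was -2.99 for the 10 longest and -3.84 for the 20 others. Over all tested genes 17.7% of the 2657 genes with the longest transcripts were lower, against 40.6% of the rest, with median log2 fold changes of 0.08 for these and -2.15 for the rest. Spearman's rho between relative length and log2 fold change was 0.35 across the 30 members, 0.31 without ATP5F1A and 0.38 across all tested genes. These points share libraries and depth, the split was chosen after the values were seen, and the part of length in the calls was not tested.

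**Figure D5:**
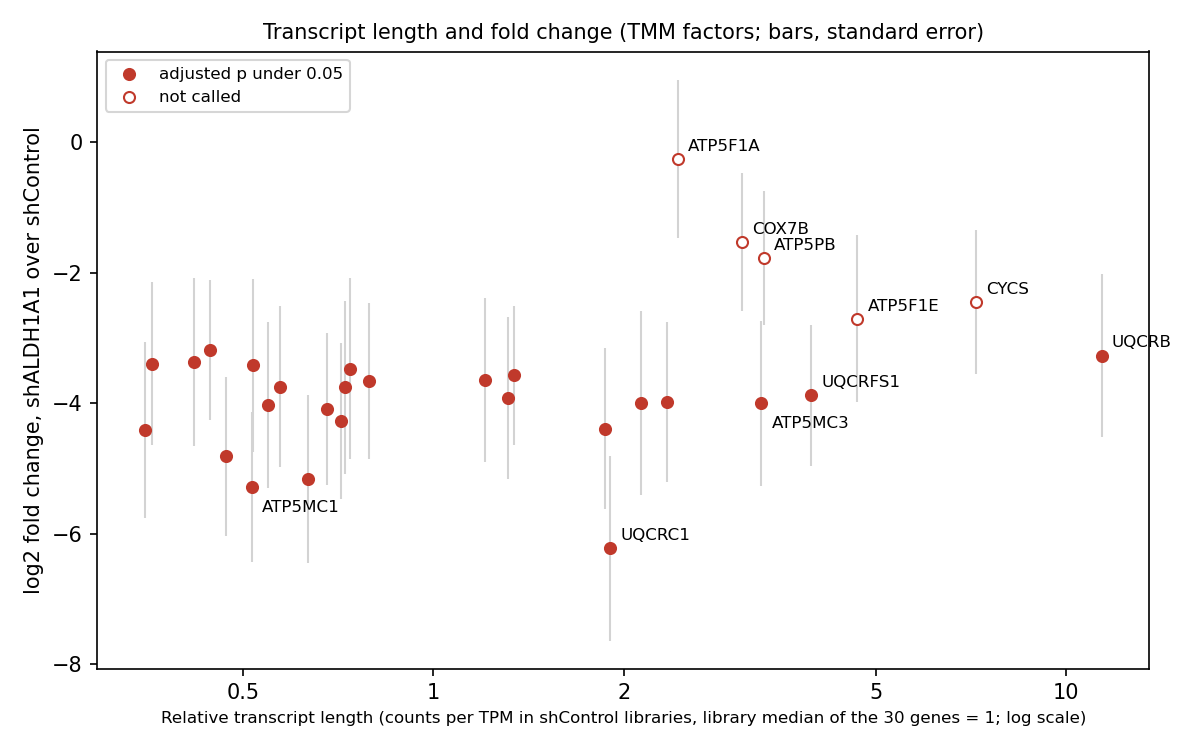
Log2 fold change with TMM factors (shALDH1A1 over shControl, bars the standard error) against relative transcript length (log scale) for the 30 subunit genes. Open points did not pass, and all 5 lie among the 10 longest members, with relative lengths from 2.44 (ATP5F1A) to 7.20 (CYCS). UQCRB at 11.4 passed. Lengths come from the shControl libraries alone. In shALDH1A1 libraries the ATP5F1A counts sat on transcripts of relative length 6.45 to 6.75.

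Of 64 other genes of these complexes, 57 were in the table and 46 were tested, of which 21 were lower, where 33.0% of all tested genes were, and 0 higher (12 of 51 tested were lower without shALDH1A1 replicate 1 and 35 of 51 without shControl replicate 2). At an unadjusted p under 0.05, 3 of the 46 were higher in edgeR, against 7.46% of all tested genes. DESeq2 called 5 of the 46 higher, against 1129 of the 7971 genes of the edgeR test and 9.46% of all 14451 genes that DESeq2 tested. The lower ones were 6 of 9 other structural subunits, 11 of 25 assembly factors, 2 of 6 regulators and 2 of 5 inhibitor and exchange genes. On the second scale 1 was lower, ATP5ME, and 9 assembly factors, 3 regulators and COX6B2 were higher, where 5.18% of all tested genes were lower and 40.8% higher. ATP5ME, a membrane subunit of ATP synthase, had 0 counts in each shALDH1A1 library, against 359, 5, 143 and 134 counts in shControl libraries, so as a share of library totals it was at least 140-fold lower (floor of 3 counts, taken over the 4 libraries together). Per count on the genes every cell uses, the same floor gave at least 5.81-fold lower. UQCR11, a small complex III subunit, had 0, 3, 5 and 2 counts in shALDH1A1 cells, against 610, 14, 312 and 201 in shControl cells (log2 fold change -4.27, adjusted p = 0.00761).

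COX17, the copper chaperone of complex IV, had 0, 1, 1 and 0 counts in shALDH1A1 cells, against 180, 8, 97 and 73 in shControl cells (log2 fold change -5.22, adjusted p = 0.00188). COX10, which makes heme for complex IV, was lower too (log2 fold change -4.46, adjusted p = 0.00213). Of the regulators, ESRRA, a nuclear receptor that drives respiratory genes, had log2 fold change -5.29 (adjusted p = 0.00257) and TFAM, the mitochondrial transcription factor, -2.48 (adjusted p = 0.0287); TFAM turned to 0.77 on the second scale. ATP5IF1, the inhibitor of ATP synthase, was lower (log2 fold change -5.05, adjusted p = 0.00197), as was SLC25A5, an ADP and ATP exchanger (-4.01, adjusted p = 0.0321).

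COX6B2, the testis isoform of COX6B1, went the other way in counts. It had 82.2, 101.8, 73.7 and 25.8 counts in shALDH1A1 cells, against 8.5, 33.1, 3.0 and 3.0 in shControl cells, with shControl replicate 2 above shALDH1A1 replicate 4. It did not pass with TMM factors (log2 fold change 2.07, adjusted p = 0.193) and was called higher on the second scale (4.90, adjusted p = 0.0199). Without shControl replicate 2 it was 5.68 with TMM factors (edgeR, adjusted p = 1.73e-05), and over the other libraries left out it was 1.59 to 2.53 and did not pass. The replicate block (4.66), median-of-ratios factors (2.33), no filter (2.28) and limma on TPM (4.23 to 4.76) also called it higher, while DESeq2 (2.27) and library totals (0.92) did not. COX7A1, the muscle isoform of COX7A2, had 0, 0, 4 and 0 counts in shALDH1A1 cells, against 166, 1, 9 and 12 in shControl cells. It was highest in shControl replicate 1, the library with 2.77% smooth muscle genes, and was not among the tested genes.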

How the data were processed

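Total RNA of shALDH1A1 and shControl HT29 cells was sequenced in 4 libraries each. The authors deposited expected counts and TPM per coding transcript, 84798 in all. Their methods name CASAVA V1.6, FASTQC V0.11.5, HISAT with hg19 and RSEM, whereas the submitters' processing notes name Bowtie2, BWA and GRCh38.p13. Of the non-zero expected counts, 64.7% were not whole (tolerance 0.001).

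Expected counts and TPM were summed per gene, and counts were rounded. ATP5MJ and ATP5MK are listed under older symbols (matched by RefSeq gene ID). Genes were tested by edgeR 4.0.16 (filterByExpr, minimum count 10, minimum total 15, TMM factors, two-sided quasi-likelihood F test, Benjamini-Hochberg) in R 4.3.3. Calls required an adjusted p under 0.05. Standard errors (SE) were derived from the F statistic, as |log2 fold change| over its square root. Alternatives were DESeq2 1.42.0, limma 3.58.1 on log2(TPM + 1) and log2(TPM + 0.1), other scalings, no filter, a replicate block and leaving out each library. Single values were compared by exact two-sided permutation tests. The scripts were tested on simulated data.

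Reads were not tagged with molecular identifiers and can be PCR copies, and intervals and floors describe counting error alone. Libraries of 291260 to 4137111 counts limit precision. Members and gene lists were chosen with earlier results of these data known. Values per library are given for the 3 members with the smallest p in each complex and for members with 25% or more of their complex's counts in a library. ATP5F1B, ATP5F1E, ATP5PB and ATP5PD were added after their values were seen. Of each other list, up to 2 genes with the smallest p are named, and COX7A1 was added after its values were seen. Gene coordinates are GRCh37 (GENCODE) and promoters GRCh38.p14 (RefSeq).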

Additional observations from a re-analysis of the deposited data

Results flagged for a closer look

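In 40 groups of 4 libraries checked, which cannot cover every member in both groups, 3 held a library far from the others. Chance gives about 1 in 20 (5%) for a single group. The 40 groups share the same libraries and are not independent, so this rate cannot judge whether 3 is an excess. All 3 were shControl replicate 1. COX5B had 861 TPM there, against 286 to 381 TPM in the other shControl libraries. COX6C had 416 TPM, against 144 to 185 TPM, and ATP5F1D had 365 TPM, against 131 to 157 TPM. This library also held 2.77% smooth muscle gene counts. The part of those counts in these values was not tested.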

How the results depend on the processing

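Scaled to the 30 genes every cell uses, members called lower numbered 1 in place of 25: 1 in complex III with cytochrome c, 0 in complex IV and 0 in ATP synthase, and other pathway genes 1 in place of 21. CYCS (1.20), COX7B (1.81), ATP5F1A (3.05), ATP5PB (1.47) and TFAM (0.77) changed sign. At the study's thresholds the members called were 0 in each complex, and 1 other pathway gene passed. DESeq2 called 38 and a fit without a filter 37 of the other pathway genes. The remaining fits with all libraries called 26 or 29 members lower, and some of them called more genes of any kind. Of the genes of the main test, library totals called 4145 of 7971 lower and DESeq2 4093 of 7971. On log2(TPM + 1) limma called 2890 of 7968 lower, and the main fit 2627 of 7971.

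Leaving out 1 library gave 9 to 29 members lower, 3 to 8 in complex III with cytochrome c, 3 to 10 in complex IV and 2 to 11 in ATP synthase, and 12 to 35 other pathway genes. ATP5F1A ranged from -0.87 to 0.25 when a library was left out and changed sign without shALDH1A1 replicate 1 (0.05) and without shALDH1A1 replicate 4 (0.25). With 3 libraries against 4 the smallest exact p is 0.0571, so no share could pass. The share of counts then differed by -0.157 to -0.103 percentage points for complex III with cytochrome c, -0.205 to -0.136 for complex IV and -0.254 to -0.168 for ATP synthase. The part of the member counts differed by -17.2 to -11.8 percentage points for complex IV and 18.2 to 27.4 for ATP synthase.

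Per 100 counts on genes every cell uses (chosen after seeing the data), the difference was -0.96 for complex III with cytochrome c and 10.9 for ATP synthase. ATP5F1A held 57.4 to 92.5% of the ATP synthase counts in shALDH1A1 libraries. Within the member counts, complex III with cytochrome c turned to 5.09 points by TPM, 2.11 without members at 25% or more of their complex and 7.48 without ATP5F1A. Complex IV moved to -11.5 points (exact permutation p = 0.0571) and -2.11 points (exact permutation p = 0.400) under the last 2 settings. ATP synthase moved to 11.6 by TPM (exact permutation p = 0.143) and to -5.37 without ATP5F1A (exact permutation p = 0.314, chosen after seeing the data). Without members at 25% or more of their complex, a set fixed by the observed percentages, ATP synthase moved to 9.39 (exact permutation p = 0.0286).

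Same-numbered libraries correlated at -0.348, -0.0740, -0.172 and 0.139, so the numbers gave no sign of pairing. With a replicate block 26 members were lower. As paired differences the shares stayed at -0.137, -0.182 and -0.225 points and the parts at -15.3 and 23.8 points, with an exact p of 0.125, the smallest 4 pairs allow. The cause of these changes was not tested.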
